A study of Homo sapiens with 4 samples.

Results

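The genes described here are 9 cancer-associated long non-coding RNA (lncRNA) genes, MALAT1, NEAT1, H19, HOTAIR, UCA1, MIR22HG, MIR31HG, MIR210HG and MIRLET7BHG, out of 18702 lncRNA genes in the GENCODE annotation on hg19. They were chosen by name, with earlier results of these data known. For each gene, peaks of the histone mark H3K27ac were taken in a promoter window, 1 kb on either side of every annotated transcript start, and over the gene body with 20 kb around it. All 9 have several alternative starts, from 6 in HOTAIR and MIR210HG to 40 in MALAT1. In the text below, the main start is the start shared by the most annotated transcripts of a gene. Where starts tied, that of the transcript marked as canonical was taken if among them, and otherwise the most upstream.

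The study profiled H3K27ac by ChIP-seq in cultures of 4 established cancer cell lines to ask whether predicted regulatory mutations lie in active chromatin. COLO-205 is labelled as colon, DU-145 as prostate, and OVCAR-3 and SKOV-3 as ovarian cancer. The same antibody was used for all lines, the growth medium differed between them, and each line is represented by 1 library. There is thus no replicate error, no test between lines is possible, and the intervals below cover counting error only.

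Long non-coding RNAs are transcribed and processed much like messenger RNAs but are not translated, and they act as scaffolds, as guides of chromatin complexes or as precursors of small RNAs. MALAT1 and NEAT1 are among the most abundant RNAs of the nucleus, where MALAT1 gathers in nuclear speckles and NEAT1 builds paraspeckles. H19 is an imprinted fetal RNA, HOTAIR is an antisense transcript of the HOXC cluster and UCA1 was named for urothelial carcinoma. The 4 genes with names ending in HG are host genes, whose transcripts carry microRNA (miRNA) hairpins. H3K27ac, acetylated lysine on the tail of histone H3, is laid down at active promoters and enhancers. It reports on chromatin and not on RNA levels, which were not measured in these files.

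The deposited list of SKOV-3 holds 14001 peaks and those of the other lines hold 75468 (DU-145) to 85576 (COLO-205). The tag number solved from each list, in units of 1e6 tags, ranged from 22.4 (SKOV-3) to 36.0 (DU-145). The short SKOV-3 list is a property of the whole library, and the fold enrichments of the peak caller are not scaled between libraries. Lines were therefore compared mainly by whether a peak was called and by rank within a library, and fold enrichments are set side by side as values only. The labels were checked against lineage markers. Promoter peaks were found for 4 of 7 colon markers in COLO-205 (CDX2, VIL1, LGALS4 and GPA33), 5 of 6 Mullerian markers in OVCAR-3 and 2 of 6 in SKOV-3 (PAX8 and ESR1). By presence of a peak, these markers did not separate the lines cleanly, since COLO-205 had 4 of the 6 Mullerian markers (PAX8, WT1, MSLN and EMX2) and DU-145 had 3, and LGALS4 was also marked in DU-145 and OVCAR-3. The fold enrichments differed more. COLO-205 reached 4.66 at PAX8, 5.04 at WT1, 6.33 at MSLN and 4.09 at EMX2. OVCAR-3 reached 31.3, 20.0, 11.4 and 34.9 in this order. Of the prostate luminal markers, DU-145 had a peak at TMPRSS2 and none at KLK3, KLK2 or HOXB13, whereas COLO-205 had peaks at KLK3, KLK2 and TMPRSS2, and OVCAR-3 at HOXB13 and TMPRSS2. The KLK2 peak of COLO-205 had a −log10 q of 3.66, close to the threshold of 3. Epithelial keratins KRT8, KRT18 and KRT19 were marked in all 4 lines, and EPCAM and CDH1 in all but SKOV-3. Of 6 markers of leukocytes, endothelium and stroma, PTPRC, CD3E, CD79A and DCN had no peak in any line, COL1A1 had one in all but SKOV-3 and CDH5 in DU-145.

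The mature sequences of the miRNAs made from the host genes show what these loci encode. They are RefSeq sequences, written 5′ to 3′ with the seed, bases 2 to 8, in capitals. The seed pairs with target messenger RNAs.
hsa-miR-31-5p: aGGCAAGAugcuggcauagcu
hsa-miR-210-3p: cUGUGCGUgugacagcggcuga
hsa-miR-22-3p: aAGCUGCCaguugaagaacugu
hsa-let-7a-5p: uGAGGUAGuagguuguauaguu
hsa-let-7b-5p: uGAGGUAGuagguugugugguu
The let-7a and let-7b strands from the MIRLET7BHG locus share the seed GAGGUAG, which other mature names among the 2370 of the table carry as well. The seeds of miR-31-5p, miR-210-3p and miR-22-3p were not found in any other mature miRNA of that table.

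Most of the 9 promoters were marked in most lines. A promoter peak was called at 9 of 9 genes in COLO-205, 8 of 9 in DU-145, 7 of 9 in OVCAR-3 and 7 of 9 in SKOV-3. Over all 18702 lncRNA genes, the share with a promoter peak was 22.8% for COLO-205, 24.4% for DU-145, 24.6% for OVCAR-3 and 10.7% for SKOV-3. Because many starts give a gene a wider promoter window, the share was also taken over the 1703 lncRNA genes with at least 6 start positions, a set chosen after the annotation was seen. It was 40.4% for COLO-205, 41.6% for DU-145, 44.2% for OVCAR-3 and 20.3% for SKOV-3. For reference, 51.1% of protein-coding genes had a promoter peak in COLO-205, compared with 31.5% in SKOV-3, 59.8% in DU-145 and 60.4% in OVCAR-3. Olfactory receptor genes, which are silent outside sensory tissue, had one in 3.26% of cases in COLO-205, 0.501% in SKOV-3, 1.25% in DU-145 and 0.752% in OVCAR-3. The counts of the 9 genes thus lay above each of these shares in every line. This is a description of well-known genes chosen by name, with earlier results of these data known.

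MALAT1, NEAT1, MIR22HG, MIR31HG, MIR210HG and MIRLET7BHG were marked in all 4 lines, as were 7.51% of all lncRNA genes and 14.3% of those with at least 6 starts. UCA1 was marked in every line but DU-145, while HOTAIR and H19 were marked in COLO-205 and DU-145 and in neither ovarian line. In all, 1405 lncRNA genes were marked in the 4 lines, 55 in all but DU-145 and 254 in COLO-205 and DU-145 alone. Where a peak is missing, it means that no peak passed the q-value threshold of 0.001 of the peak caller, and lower signals are not listed.

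**Figure D1:**
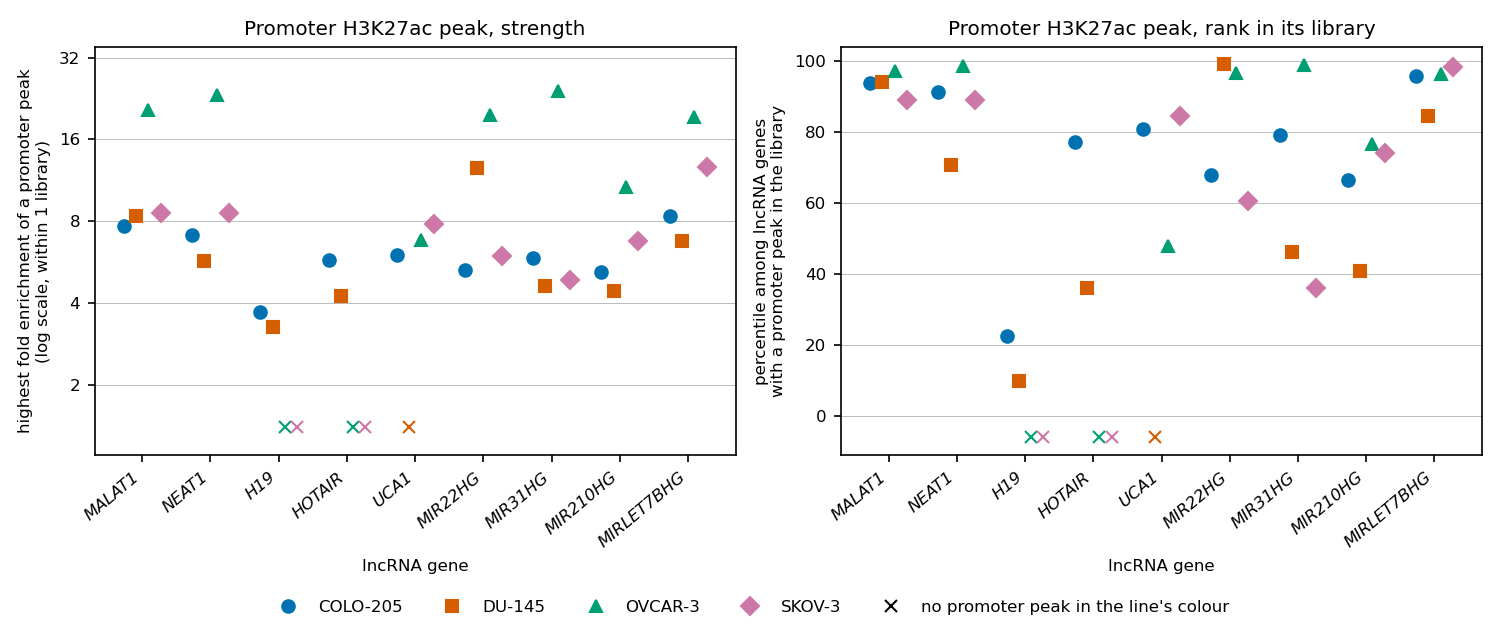
Highest fold enrichment of a promoter peak of each lncRNA gene in each line (left, log scale) and its percentile among the lncRNA genes with a promoter peak in the same library (right); a cross in the colour of a line marks a gene with no promoter peak. Fold enrichments are not scaled between libraries, and the rank shows the 7 marked genes of OVCAR-3 mostly near the top (median percentile 96.8), with H19 lowest in COLO-205 and DU-145.

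The strength of the promoter peaks relative to other lncRNA genes varied with the line. The median percentile of the marked genes, among all lncRNA genes with a promoter peak in that library, was 79.1 in COLO-205 (9 genes), 58.5 in DU-145 (8 genes), 96.8 in OVCAR-3 (7 genes) and 84.5 in SKOV-3 (7 genes), where the median of all such genes is 50 by construction. With as many peaks in each library as in SKOV-3, the median was 52.6 in COLO-205, below the 62.2 of DU-145. With at least 50% of a peak inside the window, the median of OVCAR-3 was 78.7, below the 79.9 of COLO-205 and the 85.3 of SKOV-3, so the order of the lines depends on these choices. The range was wide in each line, from 22.5 to 95.7 in COLO-205, from 9.93 to 99.1 in DU-145, from 47.9 to 98.9 in OVCAR-3 and from 36.2 to 98.4 in SKOV-3. Against the lncRNA genes with at least 6 starts the medians were 77.3, 58.0, 97.1 and 84.1 in the same order. In OVCAR-3, 5 of the genes ranked above the 90th percentile, compared with 3 in COLO-205, 2 in DU-145 and 1 in SKOV-3. These were MALAT1, NEAT1, MIR22HG, MIR31HG and MIRLET7BHG in OVCAR-3, and MIRLET7BHG alone in SKOV-3, by a peak whose summit lies outside the promoter window. With the summit required inside the window, the SKOV-3 median was 75.2.

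MALAT1, on the plus strand of chromosome 11 (chr11:65265111-65275544, hg19), was strongly marked in all lines. Its highest promoter fold enrichment was 7.67 for COLO-205, 8.37 for DU-145, 20.6 for OVCAR-3 and 8.60 for SKOV-3, at percentiles 93.9, 94.2, 97.3 and 89.2 of the respective library. The corresponding summits held 88 tags (95% Poisson interval 70.6 to 108), 80 tags (63.4 to 99.6), 257 tags (227 to 290) and 65 tags (50.2 to 82.8). Per 1e6 tags of the library this was 7.51 in OVCAR-3, against 2.95 in COLO-205, 2.90 in SKOV-3 and 2.22 in DU-145, so OVCAR-3 stood above the other lines on this scale too. The highest peak had its summit 648 bp (COLO-205), 657 bp (OVCAR-3) and 692 bp (SKOV-3) upstream of the main start, close to another start of the gene. In DU-145 the highest peak lay further out, with its summit 2061 bp upstream, and another DU-145 peak of 5.79-fold covered the site 695 bp upstream. In all, 648 bp of the promoter window, in separate stretches, were under peaks in all 4 lines. The window is shared with the lncRNA gene ENSG00000270117, whose nearest start is 229 bp away, and the peaks cannot be assigned to one or the other.

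The sequences at the upstream and the main MALAT1 start are shown because they lie on either side of the highest summits of COLO-205, SKOV-3 and OVCAR-3. Both are RefSeq promoter windows, 250 bases before to 50 after a start, 5′ to 3′ on the plus strand, given with GRCh38.p14 positions. Capitals mark the GC box GGGCGG, the binding site of SP1-family factors, or its reverse complement, in the upstream promoter and the TATA box TATAAA in the main one.
MALAT1 upstream promoter, chr11:65497488-65497787: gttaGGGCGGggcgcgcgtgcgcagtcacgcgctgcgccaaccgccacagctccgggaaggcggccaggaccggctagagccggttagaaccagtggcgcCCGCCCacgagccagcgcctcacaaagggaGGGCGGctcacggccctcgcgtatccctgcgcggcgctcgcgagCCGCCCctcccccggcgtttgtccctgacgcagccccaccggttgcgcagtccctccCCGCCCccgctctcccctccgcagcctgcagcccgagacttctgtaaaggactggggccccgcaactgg
MALAT1 main promoter, chr11:65498795-65499094: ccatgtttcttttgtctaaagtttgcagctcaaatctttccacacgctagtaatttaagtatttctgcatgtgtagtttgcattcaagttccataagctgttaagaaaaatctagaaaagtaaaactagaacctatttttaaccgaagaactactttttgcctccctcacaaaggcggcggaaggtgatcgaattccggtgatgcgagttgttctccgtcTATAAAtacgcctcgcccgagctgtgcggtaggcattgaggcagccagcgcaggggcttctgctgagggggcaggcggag
The upstream promoter had 73.7% G and C, 37 CpG dinucleotides and 5 GC boxes, whereas the main one had 46.0% G and C, 14 CpG dinucleotides and a TATAAA that begins 30 bases before the start. On hg19, where each sequence matched exactly 1 place, peaks covered 44 of the 300 bases of the upstream promoter in COLO-205, 23 in SKOV-3, 66 in DU-145 and 162 in OVCAR-3. At the main promoter they covered 232 bases in DU-145 and all 300 in OVCAR-3, and none in the remaining lines. The GC-rich window was thus touched by peaks in every line and the TATA-containing window in DU-145 and OVCAR-3. Across the 35116 promoters of the table, 45.0% hold the GC box and 11.5% hold TATAAA on either strand.

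Beyond the promoter, the lines differed in how much of the MALAT1 region was marked. Peaks covered 5.64% of the gene body and 20 kb around it in COLO-205 (9 peaks), 35.2% in DU-145 (21 peaks), 38.2% in OVCAR-3 (28 peaks) and 6.58% in SKOV-3 (10 peaks). In the 1 Mb on either side, the covered share was 2.73% for COLO-205, 10.2% for DU-145, 6.99% for OVCAR-3 and 1.37% for SKOV-3, so the region stood above its surroundings in each line. The widest peak there was 5045 bp in DU-145 (chr11:65255335-65260379) and 3621 bp in OVCAR-3 (chr11:65255282-65258902), both upstream of the gene. With as many peaks in each library as in SKOV-3, the region held 10 peaks in SKOV-3, 8 in OVCAR-3, 9 in DU-145 and 3 in COLO-205, so the counts of DU-145 and OVCAR-3 were no longer above that of SKOV-3 but were still above that of COLO-205. At the other end, the start of TALAM1, the antisense partner of MALAT1, had peaks in DU-145 (7.21-fold) and OVCAR-3 (16.4-fold) and in neither of the other lines.

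NEAT1 lies upstream of MALAT1 on the same strand (chr11:65190245-65213011). Its promoter reached 7.08-fold in COLO-205, 5.68-fold in DU-145, 23.2-fold in OVCAR-3 and 8.56-fold in SKOV-3, at percentiles 91.2, 70.7, 98.7 and 89.0. The OVCAR-3 peak was 8135 bp wide (chr11:65183656-65191790), held 351 tags at its summit (95% Poisson interval 315 to 390) and had a −log10 q of 340. In DU-145 a peak of 2796 bp spanned the start, and a 5032 bp peak of 8.98-fold followed directly upstream (chr11:65183719-65188750). In COLO-205 and SKOV-3 the main start itself lay in a gap between peaks, 246 bp wide in COLO-205 and 185 bp in SKOV-3. Peaks of all 4 lines shared 1327 bp of the promoter window, more than at MALAT1. The window overlaps that of the lncRNA gene ENSG00000290057, whose nearest start is 1326 bp away. The highest promoter peak of each line lies in both windows and cannot be assigned to one or the other.

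An upstream element at NEAT1 was also common to the lines. A peak of 890 bp in COLO-205 (chr11:65186424-65187313) and one of 1108 bp in SKOV-3 (chr11:65186366-65187473) lay inside the wide peaks of DU-145 and OVCAR-3. In SKOV-3 this element, with a summit 3200 bp upstream, was the highest peak of the region at 9.25-fold. Over gene body and flanks, peaks covered 33.1% in OVCAR-3 and 23.9% in DU-145, against 6.73% and 10.2% in the surrounding 1 Mb. Coverage was 5.28% in COLO-205 and 5.44% in SKOV-3, against 2.77% and 1.31%. Within the gene body, 9 peaks were called in DU-145 and 10 in OVCAR-3, compared with 1 in COLO-205 and 2 in SKOV-3. With equal peak numbers, 3 peaks remained in the NEAT1 region of COLO-205, of DU-145 and of OVCAR-3, and SKOV-3 had 7, which turned the order of the counts round. In the lists as deposited, coverage had the same order of lines at NEAT1 as at MALAT1. The loci are neighbours and share most of the 1 Mb compared, so they are not independent of each other.

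**Figure D2:**
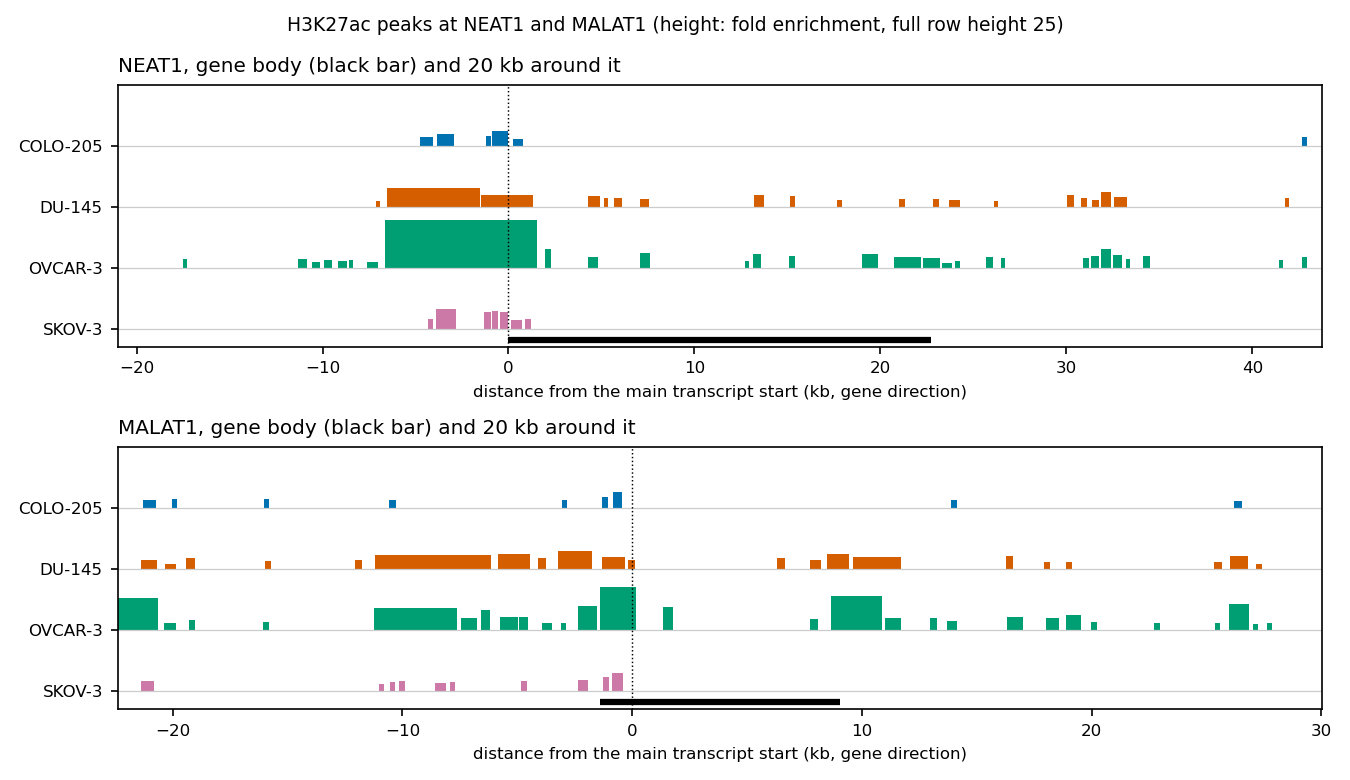
H3K27ac peaks of each line over NEAT1 (top) and MALAT1 (bottom) with 20 kb around the gene body (black bar), by distance from the main start in kb in the direction of the gene; bar height is the fold enrichment, with a full row at 25. OVCAR-3 shows the 8135 bp peak over the NEAT1 start, and DU-145 and OVCAR-3 carry 20 to 29 peaks per region, where COLO-205 and SKOV-3 carry 6 to 10; with equal peak numbers per library it held only at MALAT1 against COLO-205.

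H19, on the minus strand of chromosome 11 (chr11:2016396-2025782), had the weakest promoter peaks of the 9 genes. It reached 3.70-fold in COLO-205, with 27 tags at the summit (95% Poisson interval 17.8 to 39.3), and 3.25-fold in DU-145, with 33 tags (22.7 to 46.3), at percentiles 22.5 and 9.93. The −log10 q values were 6.91 and 7.03, where the threshold of the list is 3. No base was shared by the peaks of these lines. The COLO-205 peak lay 710 to 927 bp downstream of the main start, and the DU-145 peaks lay 752 to 1018 bp and 4492 to 4739 bp upstream of it. No promoter peak was called in OVCAR-3 or SKOV-3. With a −log10 q of at least 10, or with the 5′ end of the gene record as the only start, no line had an H19 promoter peak.

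Around H19 the picture was different. COLO-205 had 25 peaks in the region, which covered 16.3% of it, but 21 of them lay in no promoter window and the highest reached 5.39-fold. With a −log10 q of at least 10, 1 of these peaks was left, and with equal numbers of peaks per library none was. The surrounding 1 Mb of COLO-205 was covered at 8.78% by 437 peaks, compared with 0.878% and 29 peaks in DU-145, 2.07% and 53 peaks in OVCAR-3, and 0.464% and 22 peaks in SKOV-3. The dense marking in COLO-205 therefore extended well past H19. Its part in the H19 values was not tested. OVCAR-3 had 6 peaks covering 6.15%, of which the highest, at 6.09-fold, lay 7979 bp downstream of the main start at the lncRNA gene MRPL23-AS1. In SKOV-3 no peak was called in the region.

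HOTAIR, on the minus strand of chromosome 12 (chr12:54356092-54368740), was marked directly at its start. The peaks spanned the main start in COLO-205 (889 bp, 5.76-fold, 46 tags, 95% Poisson interval 33.7 to 61.4) and in DU-145 (965 bp, 4.25-fold, 43 tags, 31.1 to 57.9), and shared 840 bp. They ranked at percentile 77.2 in COLO-205 and 36.0 in DU-145. The region had no peak at all in OVCAR-3 or SKOV-3, although 138 peaks in OVCAR-3 and 28 in SKOV-3 were called within 1 Mb. Neighbouring HOXC genes, which encode homeodomain transcription factors of body patterning, followed in part. HOXC11, whose window overlaps that of HOTAIR, and HOXC12 had no promoter peak in any line. HOXC10 with HOXC-AS3 was marked in COLO-205 (3.27-fold) and DU-145 (4.95-fold), as was HOXC9 (3.97-fold and 7.14-fold), and none of these was marked in the ovarian lines. HOXC6 was marked in DU-145 (5.45-fold) and OVCAR-3 (5.12-fold). When each library was reduced to the same number of peaks, HOTAIR kept a promoter peak in 1 line.

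UCA1, on the plus strand of chromosome 19 (chr19:15939016-15947138), showed a narrow peak upstream of its main start in 3 lines. Fold enrichment was 5.99 for COLO-205, 6.82 for OVCAR-3 and 7.81 for SKOV-3, with 29 tags (95% Poisson interval 19.4 to 41.6), 35 tags (24.4 to 48.7) and 22 tags (13.8 to 33.3). The percentiles were 81.0, 47.9 and 84.5, so the OVCAR-3 peak was in the middle of its library and the others were in the upper part. The summits lay 551, 524 and 456 bp upstream of the main start and the peaks shared 220 bp, which is narrow compared with the 648 to 1715 bp shared at the genes marked in all lines. OVCAR-3 had further peaks 35 to 259 bp and 1910 to 2252 bp downstream. In DU-145 no peak was called in the promoter window. All 4 lines, DU-145 included, had a peak just past the 3′ end of UCA1, from 699 to 823 bp wide, at the starts of the lncRNA genes LINC01764 and ENSG00000288618. It was the highest peak of the region in COLO-205 (8.84-fold, 7584 bp from the main start) and the only one in DU-145 (3.77-fold). Another start of LINC01764 lies 20 bp from a UCA1 start, so the promoter peak of UCA1 cannot be told apart from that gene. With equal numbers of peaks, UCA1 kept a promoter peak in 1 line, SKOV-3, whose list is not shortened.

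MIR22HG, on the minus strand of chromosome 17 (chr17:1614741-1620468), is the host of miR-22 and was marked in all lines with a large spread of ranks. Its highest promoter peak reached 5.29-fold in COLO-205, 12.5-fold in DU-145, 19.7-fold in OVCAR-3 and 5.95-fold in SKOV-3, at percentiles 68.0, 99.1, 96.8 and 60.7. It was the highest-ranked of the 9 genes in DU-145, where a 2319 bp peak upstream held 135 tags (95% Poisson interval 113 to 160) and a 1229 bp peak spanned the start. The upstream summits of DU-145, OVCAR-3 and SKOV-3 lay 690, 639 and 622 bp from the main start. In COLO-205 the highest peak, on which its percentile rests, had its summit 2241 bp upstream, outside the promoter window. Another COLO-205 peak, of 4.99-fold, had its summit at 603 bp. The main start was in a gap between peaks of 425 bp in OVCAR-3, 574 bp in COLO-205 and 655 bp in SKOV-3. A start of WDR81, a protein-coding gene, lies 182 bp away. In every line, the peak with its summit 603 to 690 bp upstream lies in the WDR81 promoter window too. So does the peak at or just downstream of the main start. Around the gene, DU-145 was covered at 16.4% and its 1 Mb at 11.1%, OVCAR-3 at 9.19% and 1.81%, COLO-205 at 7.83% and 2.71%, and SKOV-3 at 1.83% and 0.117%.

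MIR31HG, on the minus strand of chromosome 9 (chr9:21380072-21559890), is the longest of the 9 genes at 179819 bp and had few peaks. In the 219819 bp region, 3 peaks each were called in DU-145 and OVCAR-3 and 2 each in COLO-205 and SKOV-3. Of these 10 peaks, 7 lay in the promoter window, and the others were in DU-145 (3.93-fold) and OVCAR-3 (8.49-fold and 4.98-fold). The peaks covered from 0.348% in SKOV-3 to 0.945% in OVCAR-3. In SKOV-3 the 1 Mb on either side held 1 other peak, with 0.0139% of bases covered. The promoter reached 5.87-fold in COLO-205, 4.63-fold in DU-145, 24.1-fold in OVCAR-3 and 4.84-fold in SKOV-3. OVCAR-3 had its highest fold enrichment among the 9 genes here, with 253 tags (95% Poisson interval 223 to 286) and percentile 98.9, against percentile 79.1 in COLO-205, 46.3 in DU-145 and 36.2 in SKOV-3. The summit held 57 tags in COLO-205 (43.2 to 73.9), 47 in DU-145 (34.5 to 62.5) and 33 in SKOV-3 (22.7 to 46.3). Per 1e6 tags the summit was 7.39 in OVCAR-3 and between 1.30 and 1.91 in the other lines.

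In the unmerged peaks, the shape of the mark at the MIR31HG start differed as well. In OVCAR-3 a peak of 1586 bp covered the main start. In the other lines a peak lay on each side of it, with a gap of 158 bp in DU-145, 223 bp in COLO-205 and 328 bp in SKOV-3. Peaks of all lines shared 692 bp. The MIR31 hairpin lies 47692 bp into the gene, and the nearest peak was 16299 bp away in DU-145 and between 46597 and 47006 bp away in the other lines. The interferon genes IFNA1, IFNA2, IFNA8, IFNA13 and IFNE, which start in this region, had no promoter peak in any line.

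The promoters of MIR31HG, MIR210HG and MIR22HG are shown because peaks lay on both sides of these starts or across them in every line. They are RefSeq windows of 300 bases, 5′ to 3′ on the minus strand, with GRCh38.p14 positions. Capitals mark GC boxes in all, CACCTG (an E-box bound by ZEB1) in MIR31HG and MIR210HG, and ACGTG (the core of the hypoxia response element) in MIR210HG and MIR22HG, each on either strand.
MIR31HG promoter, chr9:21559749-21560048: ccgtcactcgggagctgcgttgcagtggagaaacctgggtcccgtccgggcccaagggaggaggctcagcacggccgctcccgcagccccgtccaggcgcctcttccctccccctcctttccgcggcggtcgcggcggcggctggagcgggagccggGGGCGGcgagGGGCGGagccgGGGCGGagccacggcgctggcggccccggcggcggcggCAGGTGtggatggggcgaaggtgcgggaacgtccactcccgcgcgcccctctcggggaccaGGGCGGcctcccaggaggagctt
MIR210HG promoter, chr11:568408-568707: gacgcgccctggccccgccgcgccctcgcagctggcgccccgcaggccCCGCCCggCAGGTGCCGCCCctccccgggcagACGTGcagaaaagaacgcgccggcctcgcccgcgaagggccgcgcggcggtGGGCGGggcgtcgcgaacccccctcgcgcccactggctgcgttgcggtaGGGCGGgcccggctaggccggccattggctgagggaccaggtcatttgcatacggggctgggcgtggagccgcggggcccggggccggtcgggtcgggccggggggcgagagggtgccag
MIR22HG promoter, chr17:1716161-1716460: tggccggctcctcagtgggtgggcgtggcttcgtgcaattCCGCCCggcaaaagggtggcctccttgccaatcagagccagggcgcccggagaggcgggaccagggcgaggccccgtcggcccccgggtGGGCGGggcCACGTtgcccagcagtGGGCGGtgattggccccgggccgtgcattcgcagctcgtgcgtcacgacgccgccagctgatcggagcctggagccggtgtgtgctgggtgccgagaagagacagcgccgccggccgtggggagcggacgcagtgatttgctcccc
G and C made up 77.7% of the MIR31HG window, 80.0% of the MIR210HG window and 72.3% of the MIR22HG window, above the median of 58.7% over all promoters of the table. They held 39, 44 and 32 CpG dinucleotides, where the median was 14. ACGTG begins 170 bases before the MIR210HG start, and CACCTG, read on the opposite strand, directly adjoins a GC box there. At MIR31HG, OVCAR-3 peaks covered all 300 bases of the window, compared with 77 in COLO-205, 142 in DU-145 and 13 in SKOV-3. At MIR210HG 173 bases were covered in OVCAR-3, 82 in DU-145, 33 in SKOV-3 and 16 in COLO-205. At MIR22HG only DU-145 (83 bases) and OVCAR-3 (16 bases) had any base covered. The start and the bases just before it were thus often free of unmerged peaks.

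Of the 9 genes, 6 had an entry in the promoter table, with 7 windows in all, and NEAT1, HOTAIR and UCA1 had none. The GC box was in the windows of 5 genes (MALAT1, MIR22HG, MIR31HG, MIR210HG and MIRLET7BHG). ACGTG was found in MIR22HG, MIR210HG and MIRLET7BHG (21.4% of all promoters), and CACCTG in H19, MIR31HG and MIR210HG (20.6%). The AP-1 site TGANTCA, the CRE TGACGTCA, the EGR1 site GCGTGGGCG, the YY1 site AAGATGGC, the PITX1 site TAATCC and the ETS site CCGGAAGT were in none of the 7 windows. These were in 7.71%, 1.85%, 0.795%, 2.89%, 6.36% and 4.14% of all promoters. The RefSeq window of H19 had 57.7% G and C and no base under a peak in any line. A match describes letters only.

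MIR210HG, on the minus strand of chromosome 11 (chr11:565657-568457), hosts miR-210, a miRNA induced by hypoxia. It was marked in all lines at 5.21-fold in COLO-205, 4.42-fold in DU-145, 10.7-fold in OVCAR-3 and 6.74-fold in SKOV-3, at percentiles 66.5, 40.8, 76.6 and 74.2. The summits held 52 tags (95% Poisson interval 38.8 to 68.2), 60 tags (45.8 to 77.2), 114 tags (94.0 to 137) and 47 tags (34.5 to 62.5). Each line had exactly 2 promoter peaks, an upstream one and a downstream one at the start. The upstream one was the higher in COLO-205 and OVCAR-3, and the downstream one in DU-145 and SKOV-3. The downstream peak began 14 bp after the main start in COLO-205, and in the other lines it reached from 3 to 79 bp upstream of it. The MIR210 hairpin (chr11:568089-568198) starts 239 bp into the gene. The downstream peak covered it whole in DU-145 and OVCAR-3 and in part in SKOV-3, and touched its edge in COLO-205. The hairpins within MIR31HG and MIRLET7BHG were under no peak. The neighbouring protein-coding gene PHRF1 had a higher promoter peak than MIR210HG in all 4 lines, for instance 17.5-fold against 10.7-fold in OVCAR-3 and 9.39-fold against 6.74-fold in SKOV-3. RASSF7 and LMNTD2, on the other side, had higher ones in COLO-205 (7.19-fold) and SKOV-3 (7.65-fold).

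**Figure D3:**
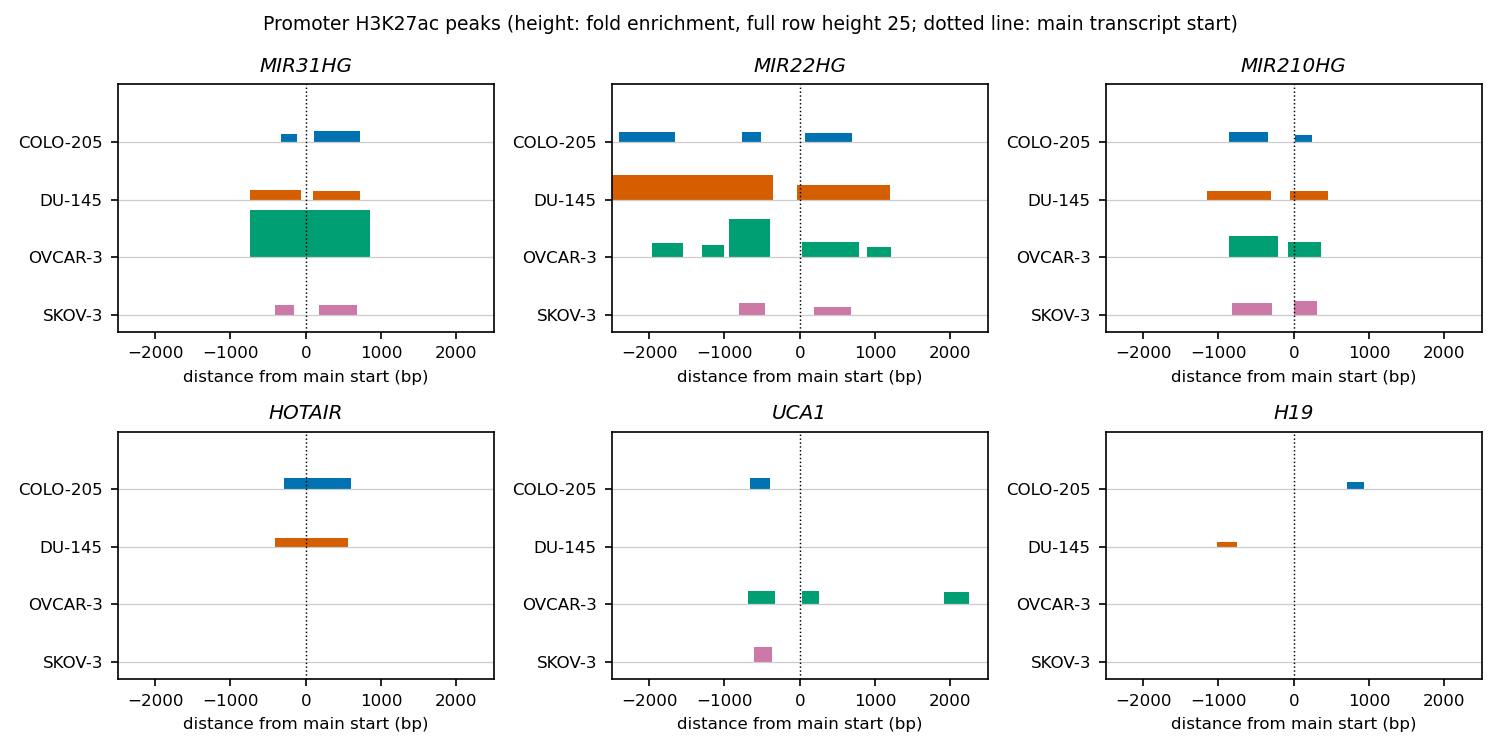
Promoter H3K27ac peaks of 6 lncRNA genes by line, within 2.5 kb of the main start (dotted line), in bp in the direction of the gene; bar height is the fold enrichment, with a full row at 25. Peaks are drawn unmerged, and merging those under 350 bp apart would close the gaps at the MIR31HG start. Peaks flank the MIR31HG start in 3 lines and cover it in OVCAR-3 (24.1-fold), HOTAIR peaks span the start in COLO-205 and DU-145, and the H19 peaks of these lines do not overlap.

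MIRLET7BHG, on the plus strand of chromosome 22 (chr22:46449749-46509808), carries the hairpins of let-7a and let-7b, miRNAs that repress growth-promoting genes such as HMGA2 and RAS family members. The highest promoter peak reached 8.36-fold in COLO-205, 6.73-fold in DU-145, 19.3-fold in OVCAR-3 and 12.7-fold in SKOV-3, at percentiles 95.7, 84.6, 96.4 and 98.4. It held 75 tags in COLO-205 (95% Poisson interval 59.0 to 94.0), 63 in DU-145 (48.4 to 80.6), 141 in OVCAR-3 (119 to 166) and 88 in SKOV-3 (70.6 to 108). In COLO-205, OVCAR-3 and SKOV-3 this peak was not at the main start but inside the gene, with summits 16293, 18183 and 16914 bp downstream. The OVCAR-3 summit was 237 bp from an internal start, whereas those of COLO-205 and SKOV-3 were 2127 and 1506 bp from the nearest of its starts, so that there the peak reached the promoter window but its summit did not. DU-145 had its highest peak 738 bp downstream of the main start, and a 2791 bp peak of 6.46-fold at the internal site.

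Within 1 kb of the main start the fold enrichment was 3.63 for COLO-205, 7.62 for OVCAR-3 and 5.32 for SKOV-3, lower than at the internal site, and 6.73 for DU-145, where it was the highest of the promoter. The promoter windows there are shared with the lncRNA genes PRR34, PRR34-AS1 and ENSG00000273289. The internal peak was between 2657 bp (SKOV-3) and 3286 bp (OVCAR-3) wide in every line, and it also touches the promoter windows of LINC02939 and ENSG00000289044. Peaks of all lines shared 1715 bp of the MIRLET7BHG promoter windows, the most of the 9 genes. In SKOV-3 an even higher peak of 15.6-fold lay outside the promoter windows of the gene, 15483 bp downstream of the main start (chr22:46464989-46465389).

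Coverage of the MIRLET7BHG region was high in 3 of the lines. Peaks covered 15.5% in COLO-205 (25 peaks), 15.2% in DU-145 (18 peaks), 5.81% in OVCAR-3 (6 peaks) and 11.6% in SKOV-3 (19 peaks), against 2.78%, 1.72%, 1.52% and 1.07% in the 1 Mb on either side. SKOV-3, whose list is the shortest, thus had more peaks here than OVCAR-3, while over the 9 regions together SKOV-3 had 46 and OVCAR-3 had 92. With equal peak numbers the region held 19 peaks in SKOV-3 and 3 to 6 in the other lines. The let-7 hairpins at the 3′ end of the gene were not under a peak. The nearest peak to MIRLET7A3 was 2005 bp away in DU-145, 2894 bp in COLO-205, 26165 bp in SKOV-3 and 38315 bp in OVCAR-3. The MIRLET7B hairpin, further along the same transcript, lay 2942, 3831, 27102 and 39252 bp from the nearest peak in the same order. The peaks behind the shorter distances were weak, at 3.33-fold in COLO-205 and 2.69-fold in DU-145.

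**Figure D4:**
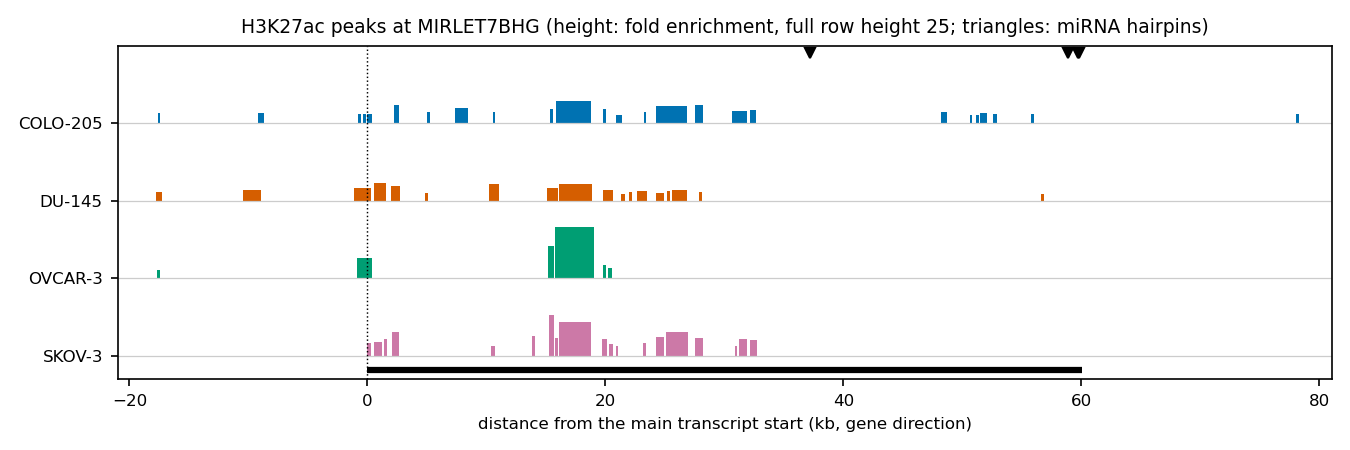
H3K27ac peaks of each line over MIRLET7BHG with 20 kb around the gene body (black bar), by distance from the main start in kb; bar height is the fold enrichment, with a full row at 25, and triangles mark miRNA hairpins. The internal peak, from 2657 to 3286 bp wide, is present in all 4 lines, and no peak lies over a hairpin.

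Over the gene body and 20 kb around it, a peak was called at all 9 genes in COLO-205 and in DU-145, at 8 in OVCAR-3 and at 7 in SKOV-3. For all lncRNA genes this share was 61.3% for COLO-205, 51.8% for DU-145, 53.9% for OVCAR-3 and 26.6% for SKOV-3, so this wider window separates the 9 genes less from the rest than the promoter window does. The 9 regions span 671768 bp in all and held 92 peaks in OVCAR-3, 89 in COLO-205, 85 in DU-145 and 46 in SKOV-3. They were covered at 9.05%, 6.10%, 9.82% and 3.37% in this order. The order of the genes by regional coverage differed from that by promoter rank. MIR31HG had the highest promoter fold enrichment in OVCAR-3 and the lowest regional coverage among the genes with a peak there, and H19 had the highest coverage in COLO-205 with the lowest promoter rank.

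**Figure D5:**
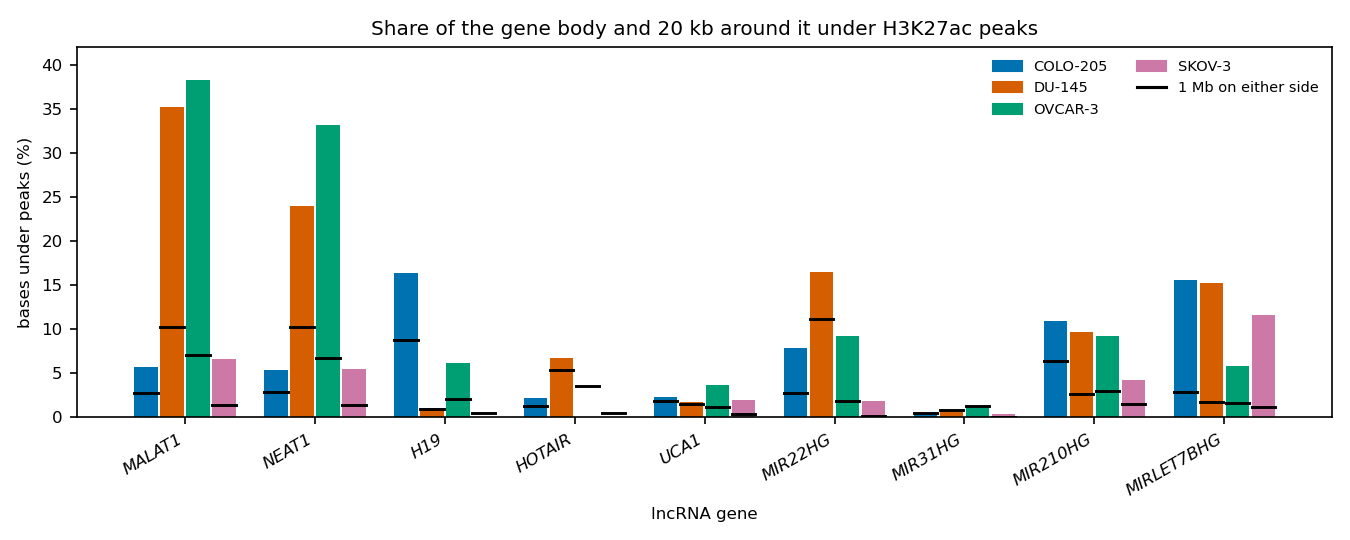
Percent of bases under H3K27ac peaks in the gene body and 20 kb around it for each lncRNA gene and line (bars), with the share in the 1 Mb on either side as a black line. MALAT1 and NEAT1 are covered at 23.9% to 38.2% in DU-145 and OVCAR-3, H19 at 16.3% in COLO-205 beside a surrounding 8.78%, and MIR31HG below 1% in every line.

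Related genes were counted by the same rule. Of 35 other cancer-associated lncRNA genes found in the annotation, 26 had a promoter peak in DU-145 (74.3%), 23 in COLO-205 (65.7%), 21 in OVCAR-3 (60.0%) and 12 in SKOV-3 (34.3%). Marked in all 4 lines were 9 of them, namely DLEU2, GAS5, GATA6-AS1, LINC00511, LUCAT1, NORAD, TERC, TUG1 and ZFAS1. NORAD, which sequesters PUMILIO proteins, had fold enrichments from 4.85 (DU-145) to 17.0 (OVCAR-3), and GAS5, a growth-arrest RNA that hosts small nucleolar RNAs, from 3.37 (SKOV-3) to 10.5 (OVCAR-3). Genes marked in exactly 1 line were LINC00707 (12.8-fold) and CASC15 (3.82-fold) in DU-145, and LINC00261 (8.03-fold), HOTTIP (4.10-fold) and TINCR (3.58-fold) in COLO-205. LINC00261 neighbours FOXA2, and HOTTIP lies at the distal end of the HOXA cluster. No ovarian line had such a gene of its own.

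Among 77 other miRNA host genes, set by name alone, 32 had a promoter peak in OVCAR-3 (41.6%), 31 in COLO-205 (40.3%), 28 in DU-145 (36.4%) and 12 in SKOV-3 (15.6%), and 32 had none in any line. These shares lay between those of all lncRNA genes and those of lncRNA genes with at least 6 starts in each line, and the 4 host genes described above were marked in every line, as were 9 of the 77. MIR17HG, the host of the oncogenic miR-17 cluster, was among these 9, with 14.4-fold enrichment in COLO-205, 14.0 in OVCAR-3, 7.30 in SKOV-3 and 3.46 in DU-145. Of 15 host genes marked in exactly 1 line, the 5 with the highest −log10 q were MIR99AHG (14.3-fold), MIR205HG (8.15-fold), MIR4435-2HG (7.95-fold) and MIR503HG (6.25-fold) in OVCAR-3 and MIR194-2HG (5.62-fold) in COLO-205. The miR-194 family is known as an intestinal and hepatic miRNA.

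The lncRNA genes most alike in pattern were those with the smallest distance over the 4 lines in log2 of the highest promoter fold enrichment, with 0 for no peak. For MALAT1 they were ENSG00000289626 (distance 0.11) and GTF2A1-AS1 (0.17), both on chromosome 14. For NEAT1 they were KANSL1-AS1 (0.13) and ENSG00000270117 (0.20), and the latter carries the promoter peaks of MALAT1. HOTAIR was closest to ENSG00000227673 and LINC00865 (both 0.07), and H19 to ENSG00000287100 (0.01) and ENSG00000271228 (0.04). MIRLET7BHG was closest to INO80D-AS1 (0.13) and ITGB1-DT (0.31), and MIR210HG to ENSG00000259523 (0.12) and ENSG00000226266 (0.17). The nearest genes were further away for MIR31HG (ENSG00000287384 and a clone-named gene on chromosome 22, both 0.28), MIR22HG (ENSG00000288917 at 0.33 and SIPA1L1-AS1 at 0.42) and UCA1 (ENSG00000283635 at 0.36 and SNHG27 at 0.37). These distances rest on 4 values each.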

How the data were processed

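H3K27ac ChIP-seq was performed in 4 cell lines with 1 library per line. Per the methods and the submitters' processing notes, the authors mapped reads to hg19 with Bowtie2 2.1.0 and called narrow peaks per library with MACS2 2.1.0.20150603 (q-value threshold 0.001). The deposited values of a peak are its score (10 times −log10 q), its fold ratio over local background, and the −log10 of its p and q, and none is scaled between libraries. Merging of peaks under 350 bp apart is given in the methods, but the deposited lists hold such neighbours, so unmerged peaks were used.

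Genes and starts were those of GENCODE 44 lifted to GRCh37. A peak counted with an overlap of at least 1 bp. The tag pileup and background at a summit were solved from the deposited fold and −log10 p, within 0.001 on the −log10 scale, and the tag number from the lowest background over 2700000000 positions. Pileups have exact Poisson 95% intervals. The solver and the overlap code were tested on simulated data. The genes named are the 9 lncRNA genes, genes starting within 20 kb, the 2 most alike lncRNA genes per member, and list genes marked in exactly 1 line, up to 5 per list. The list genes marked in all lines, and NORAD, GAS5 and MIR17HG with their values, were named after the values were seen. The members and lists were chosen with earlier results of these data known. Alternatives changed the peak threshold, overlap, peak number, merging and window sizes. Promoter and miRNA sequences are RefSeq's on GRCh38.p14. The scripts used scipy 1.17.1, numpy 2.4.6, pandas 2.3.3 and matplotlib 3.10.9 under Python 3.11.15. The result for 1 marker gene is not reported here.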

Additional observations from a re-analysis of the deposited data

How the results depend on the processing

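The number of the 9 genes with a promoter peak stayed within 1.5 times in every line under every alternative tried, as did the number with a peak in the wider region. The median percentile of their promoter peaks moved more. With a −log10 q of at least 10 it was 62.5 in DU-145, 63.9 in COLO-205, 78.1 in SKOV-3 and 96.2 in OVCAR-3. With the summit inside the window it was 60.7 in DU-145, 75.2 in SKOV-3 and 97.4 in OVCAR-3. With at least 50% of the peak inside the window it was 60.9 in DU-145 and 78.7 in OVCAR-3. With as many peaks in each library as in SKOV-3 it was 52.6 in COLO-205, 62.2 in DU-145 and 94.6 in OVCAR-3. In DU-145 it was 64.5 after merging, 70.9 for windows of 500 bp, 64.9 for windows of 2 kb and 71.1 with the 5′ end of the gene record alone, which gave 74.5 in SKOV-3. Of the other miRNA host genes, 17 had a promoter peak in COLO-205 with a −log10 q of at least 10. With equal peak numbers, 11 of them did in COLO-205, 16 in DU-145 and 17 in OVCAR-3, and of the other cancer-associated lncRNA genes 12 did in COLO-205 and 14 in DU-145. These falls follow from the shorter lists. The causes of the other moves were not tested. Under that setting the share of all lncRNA genes with a promoter peak was 8.15% in COLO-205, 13.4% in DU-145 and 13.2% in OVCAR-3. No paired analysis was possible because each line has 1 library and no replicate numbers. Signals below the threshold of the peak caller are not listed, so a missing peak means that none was called and does not show whether the mark was absent.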
